A study of Mus musculus with 24 samples.

Results

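The comparison set soleus against gastrocnemius, which lie beside each other in the calf, in mouse embryos shortly before birth, at E18.5, the embryonic day in the labels. Its members were 6 of the 24 ATAC-seq peak lists of the study, 3 from E18.5 soleus and 3 from E18.5 gastrocnemius, chosen by muscle and stage in the labels. ATAC-seq marks open chromatin by letting the transposase Tn5 insert adapters into accessible DNA, and each list gave the stretches where such insertions piled up in 1 library. All 6 libraries came from male embryos of the inbred strain FVB/NJ with no transgene, mutation or treatment in the labels. A replicate pooled the left and right muscles of up to 5 embryos of 1 litter, and soleus 1 and gastrocnemius 1 came from litter 1, and so on to litter 3. Nuclei were taken from undigested tissue, so that fibres, connective tissue, vessels and nerve all contributed, and fewer cells of a type cannot be told apart from less open chromatin per cell. The other 18 lists, used below only beside these 6, were E18.5 vastus intermedius and vastus lateralis of the same litters, and the same 4 muscles of 3 adult male FVB/NJ mice, given as P56 in the series' design and as 3 to 4 months old in the protocol.

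Skeletal muscle is built from fibres that contract slowly and rely on oxidative metabolism and from fibres that contract fast and rely more on glycolysis. In the adult mouse the soleus is rich in slow fibres, which carry the myosin heavy chain Myh7, and the gastrocnemius is mostly fast, with Myh4, Myh1 and Myh2. Before birth, fibres largely use the embryonic and perinatal myosins Myh3 and Myh8, and slow and fast programs separate as innervation and birth approach, with Sox6, Tbx15 and Nfix known as regulators of that choice. The study named the soleus slow-biased and the gastrocnemius fast-biased, and the comparison asked whether that bias was already visible in open chromatin before birth.

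A region was called separated when all 3 lists of 1 muscle held a peak in it and none of the 3 lists of the other did. Separated regions reached few gene starts, and the promoter windows of 3 genes are shown because such regions touched them. A window runs from 250 bases before to 50 after the annotated start, in RefSeq's GRCm38.p6, the assembly behind mm10. Slc22a18, a solute carrier, lies at chr7:143473539-143473838 on the plus strand, and its window held a peak in 3 of 3 soleus and 0 of 3 gastrocnemius lists. Fmo2, a flavin-containing monooxygenase, lies at chr1:162898444-162898743 on the minus strand, and its window held a peak in 0 of 3 soleus and 3 of 3 gastrocnemius lists. Myh7b, a sarcomeric myosin heavy chain of slow and cardiac muscle, lies at chr2:155610993-155611292 on the plus strand. The gastrocnemius-only region began inside the Myh7b window, but the peak of only 1 of the 3 gastrocnemius lists reached it. Capitals mark E-boxes (CANNTG, the same on both strands, the kind of site that myogenic factors can bind) and, in Fmo2, a MEF2 site.
Slc22a18: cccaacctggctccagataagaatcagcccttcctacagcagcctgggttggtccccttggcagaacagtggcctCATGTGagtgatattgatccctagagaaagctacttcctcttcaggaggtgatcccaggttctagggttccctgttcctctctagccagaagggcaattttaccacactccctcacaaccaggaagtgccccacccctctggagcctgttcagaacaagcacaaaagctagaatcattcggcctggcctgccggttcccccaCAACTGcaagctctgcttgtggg
Fmo2: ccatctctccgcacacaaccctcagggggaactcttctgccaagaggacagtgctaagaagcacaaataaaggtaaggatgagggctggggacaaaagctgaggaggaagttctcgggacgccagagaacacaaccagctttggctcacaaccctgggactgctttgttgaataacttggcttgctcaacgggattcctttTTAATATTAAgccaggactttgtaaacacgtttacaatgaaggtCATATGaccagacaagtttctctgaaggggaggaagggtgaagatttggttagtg
Myh7b: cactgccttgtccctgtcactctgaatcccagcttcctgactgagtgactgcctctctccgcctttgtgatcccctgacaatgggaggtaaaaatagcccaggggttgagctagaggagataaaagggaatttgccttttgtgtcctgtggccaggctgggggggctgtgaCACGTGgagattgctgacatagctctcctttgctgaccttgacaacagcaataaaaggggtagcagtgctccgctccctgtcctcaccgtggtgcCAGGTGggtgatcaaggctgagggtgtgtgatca
The Slc22a18 window held 2 E-boxes, the Fmo2 window 1 E-box and 1 MEF2 site that do not overlap, and the Myh7b window 2 E-boxes. E-boxes of this form were present in 72.3% of all 32851 promoter windows and MEF2 sites in 3.19%, so an E-box did not set these windows apart.

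The soleus lists held 129754, 228137 and 120387 peaks in litters 1, 2 and 3, and the gastrocnemius lists 211354, 176112 and 134814. Soleus lists averaged 159426 ± 59689 peaks and gastrocnemius lists 174093 ± 38310 (SD, n = 3 each), a difference within the spread of either muscle (exact permutation test, two-sided p = 0.8, where 0.1 is the smallest that 3 against 3 allows). Sequencing depth was not given in the sources used here, and list length stands in for it. Counts were therefore also made on the first 115333 rows of every list, the length of the shortest of the 24 lists. The promoter windows of Myog, a myogenic factor, of the intermediate filament gene Des and of Pax7, a progenitor factor, held a peak in 6 of 6 lists. That of Acta1, skeletal actin, did so in 2 soleus and 3 gastrocnemius lists. The window of Myf5, another myogenic factor, did so in 3 and 2, and that of Ckm, muscle creatine kinase, in 2 and 2. Of the immune markers with a window, 6 of 9 had no peak there in any of the 6 lists, among them Ptprc, Itgam and Cd3e. The same held for 5 of 7 erythroid markers, but also for 6 of 17 fast fibre genes, among them Mylpf and Atp2a1. It held for 0 of 9 endothelial, 0 of 8 smooth muscle and pericyte and 0 of 7 Schwann cell and neuron markers. Of all 27025 genes with a window, 35.4% were called in 0 of 6 lists and 43.7% in 6 of 6. These calls do not measure how pure the muscle was.

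With all pairs pooled, lists of the same muscle were no more alike than lists of different muscles, but litter was not balanced between these pairs. The share of regions called in either list of a pair that both called averaged 0.332 over the 6 pairs within a muscle and 0.340 over the 9 pairs between muscles (exact permutation test, p = 0.9), and 0.396 and 0.398 with equal rows (p = 0.5). Pairs within a muscle always came from different litters, while 3 of the 9 pairs between muscles shared a litter. Those 3 averaged 0.354 and the other 6 averaged 0.332 with full lists, and 0.4225 and 0.385 with equal rows. Over the arrangements that hold the litter fixed, p was 0.75 with full lists and 0.25, the smallest possible, with equal rows (exact permutation test). The pair most alike with full lists was soleus 1 and gastrocnemius 1, from the same litter, at 0.410, and the pair least alike was soleus 2 and soleus 3, at 0.278. Soleus 3 and gastrocnemius 3 stood apart from the rest: they averaged 0.298 and 0.310 with the other 5 lists, against 0.328 to 0.366 for the remaining 4. Soleus 3 also had 1.76% of its peaks on the Y chromosome, where the other 5 lists had 0.685% to 0.927%.

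Merged over both muscles, the peaks made 434345 regions; at least 3 lists shared 128410 of these and all 6 shared 42885. Soleus alone called 723 regions, 0.563% of those in at least 3 lists, and gastrocnemius alone called 2152, or 1.68%. With equal rows the counts were 825 (0.877% of 94092) for soleus and 1375 (1.46%) for gastrocnemius. The regions themselves depended on the rows used: 260 of the 723 soleus-only regions (35.96%, and 31.5% of the 825) and 739 of the 2152 gastrocnemius-only regions (34.3%, and 53.8% of the 1375) were separated both ways, and none turned to the opposite muscle. Just outside the rule, 2493 regions were called in 3 soleus lists and 1 gastrocnemius list and 9538 in 2 and 0, while 6043 were called in 1 soleus list and 3 gastrocnemius lists and 15518 in 0 and 2.

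The number of separated regions lay within the range that other arrangements of the same lists gave. The muscles separated 2875 regions in all, and the 9 other ways to set 3 of the 6 lists against the other 3 separated 1833 to 7354, with a median of 2915, of which 5 were at or above the muscles' total (exact permutation test, p = 0.6). With equal rows the muscles separated 2200 and the others 1269 to 5059, with a median of 1854 and 3 at or above (exact permutation test, p = 0.4). Among the 4 arrangements with 1 list of each litter on either side, which hold the litter fixed, 2200 was the highest of 2200, 1269, 1369 and 1484 (exact permutation test, p = 0.25, the smallest these allow), while with full lists 2875 stood below 3060 and 2915 and above 1833 (p = 0.75). With the first 57666 rows the total was 1264 against a median of 662 (exact permutation test, p = 0.2). The muscles' total thus stood below the median of the others with full lists and above it in the other 5 settings tried. With the litter fixed, 1264 stood above 406, 419 and 461 with 57666 rows. The total of 2265 stood above 1401, 1487 and 1595 with the rows of the shortest of the 6 lists. With 50% cover 2470 stood above 1458, 1831 and 2054. In each of these p was 0.25, the smallest possible (exact permutation test). On autosomes 2819 stood below 3023 and above 2802 and 1803 (exact permutation test, p = 0.5). Leaving out 1 list in turn relaxed the rule to 2 lists on a side and gave 1014 to 5633 soleus-only and 2711 to 10919 gastrocnemius-only regions. Gastrocnemius-only regions were highest, at 10919, without gastrocnemius 3, and soleus-only regions highest, at 5633, without soleus 1. Litter 1 carries another date in the file names than litters 2 and 3, and what the date marks is not given. Within the date that litters 2 and 3 share, 2 lists against 2 gave 9790 soleus-only and 7664 gastrocnemius-only regions, so the excess of gastrocnemius-only regions was not seen there. These were full lists, with 228137 and 120387 peaks in soleus and 176112 and 134814 in gastrocnemius, and no count with equal rows was made. The parts of date and list length in this were not tested.

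**Figure D1:**
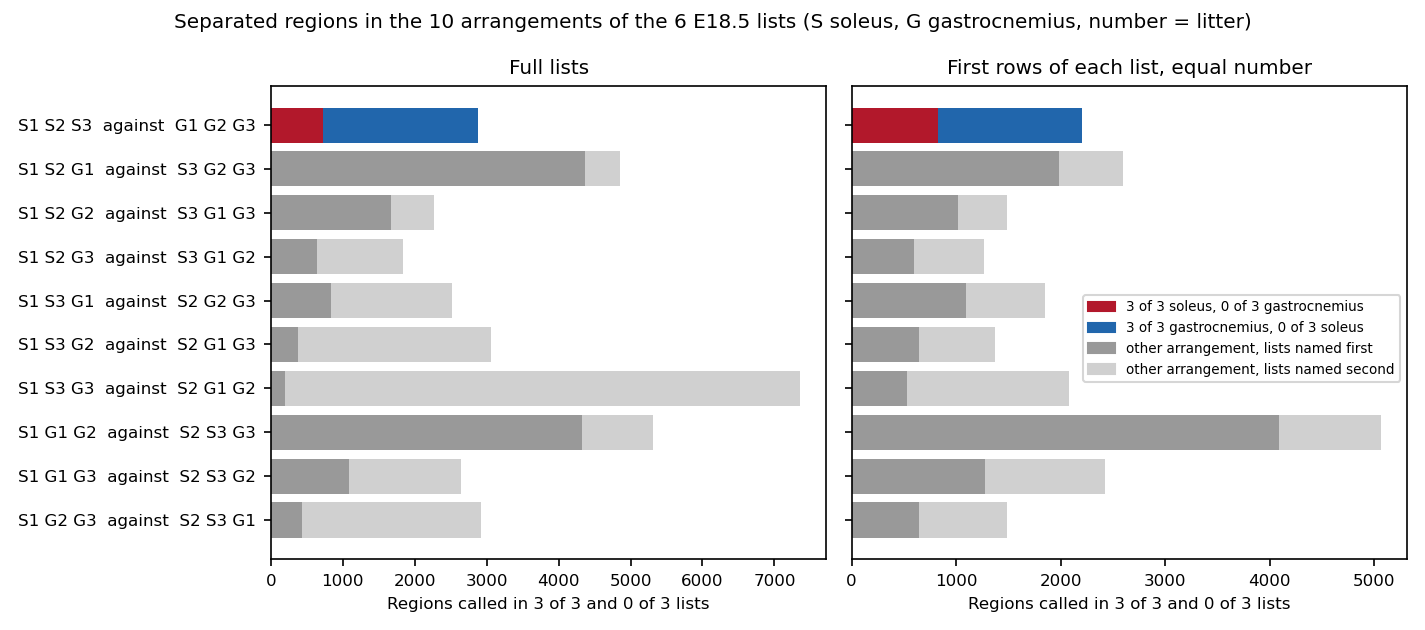
Regions called in 3 of 3 lists on a side and 0 of 3 on the other (x axis, number of regions), for each of the 10 arrangements of the 6 E18.5 lists (y axis), with full lists on the left and equal rows on the right. Soleus against gastrocnemius, in colour at the top, totals 2875 and 2200, within the range of the grey arrangements.

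Separated regions lay mostly away from gene starts and were close in width to all regions called in exactly 3 lists. The median width was 701 bp for soleus-only and 688.5 bp for gastrocnemius-only regions, beside 692 bp for all regions called in exactly 3 lists and 1362 bp for those called in all 6. Their peaks stood at a median of 65.2% (soleus-only) and 55.9% (gastrocnemius-only) of the way down their lists. In 5 of the 6 lists mean peak width fell steadily from the first to the last rows, but the order of rows is not described in the sources used here. Promoter windows were overlapped by 1.66% of soleus-only and 2.05% of gastrocnemius-only regions, near the 2.07% of all regions called in exactly 3 lists and far below the 26.5% of regions called in all 6.

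The regions of the muscles differed in where they lay. Soleus-only regions lay inside genes in 48.6% and between genes in 49.8% of cases, and gastrocnemius-only regions in 64.2% and 33.7%. The 18 other sets of 3 lists spanned 46.3% to 68.7% inside genes, so both values fell within what other sets gave. The sets with soleus 2 and soleus 3 together were lowest, at 46.3% with gastrocnemius 3, 47.5% with gastrocnemius 2 and 52.7% with gastrocnemius 1. Soleus-only regions also held 21 Y-chromosome regions (2.91%), gastrocnemius-only regions 5 (0.232%), and the part of the Y share of soleus 3 in this was not tested. By promoter window, 15 genes were called in 3 of 3 soleus and 0 of 3 gastrocnemius lists and 44 the other way, 0.104% and 0.305% of the 14443 genes whose window was called in at least 3 lists. Of these, 5 and 20 were protein-coding genes.

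**Figure D2:**
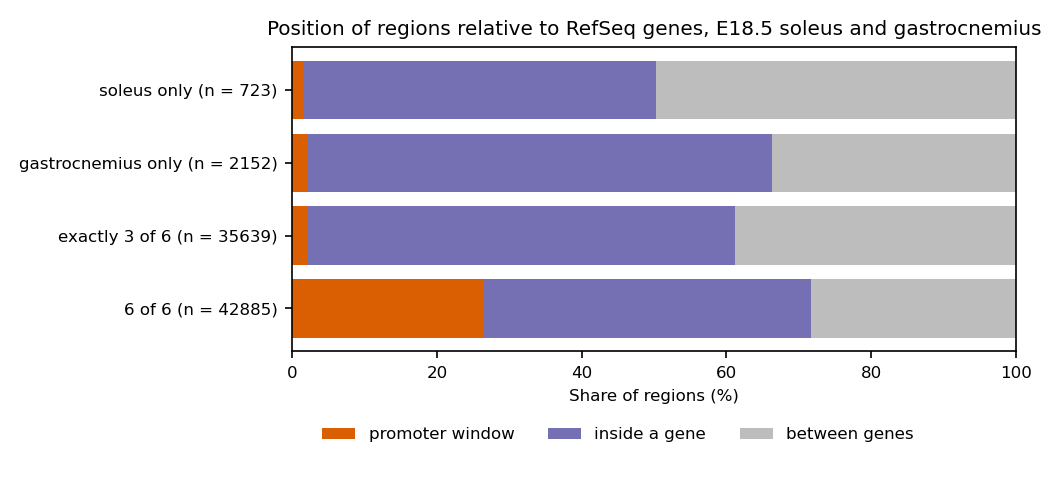
Share of regions (x axis, percent) that overlap a promoter window, lie inside a gene or lie between genes, for the soleus-only, gastrocnemius-only, exactly-3-of-6 and 6-of-6 regions of the E18.5 lists (y axis). Separated regions hold few promoters, and soleus-only regions lie between genes more often (49.8%) than gastrocnemius-only regions (33.7%).

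The widest soleus-only regions separated with both full and equal rows lay near genes of no common kind. The region beside Gm20767 at chr13:120136691-120138341 had peaks of 453, 767 and 1393 bp in soleus litters 1, 2 and 3, and that in Fmnl2, a formin of the actin skeleton, at chr2:52946040-52947261 had peaks of 974, 1035 and 451 bp. The region in Sipa1l3, a signal-induced proliferation-associated protein, at chr7:29370058-29371632 had peaks of 1365, 732 and 261 bp. The other 7 lay in or nearest to Olfr1355, Slc26a4, Nkain3, Ctnnbl1, Macroh2a1, Gc and Tcf4, with mean widths of 720 to 779 bp. None of the 10 was called in more lists of adult soleus than of adult gastrocnemius: the Fmnl2, Sipa1l3, Olfr1355 and Gc regions were called in 1 of 3 adult soleus and 3 of 3 adult gastrocnemius lists each. The region in Slc26a4, an anion exchanger, at chr12:31534128-31535103, with peaks of 837, 676 and 800 bp, was called in only 2 of the other 18 lists.

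Among the widest gastrocnemius-only regions, that in Cacna1e, a voltage-gated calcium channel subunit, at chr1:154661016-154662795 had peaks of 1001, 1059 and 1780 bp in gastrocnemius litters 1, 2 and 3. The region in the lncRNA gene A730090N16Rik, within Kcnab1, a potassium channel subunit, at chr3:65325312-65326455 had peaks of 1068, 1067 and 1026 bp. Both were called in 3 of 3 E18.5 vastus lateralis lists, as were the regions in Dapk1, a death-associated kinase, and Pde11a, a phosphodiesterase, that at Gm40541 within Tshr, the thyrotropin receptor gene, and that beside Gm36488. The Cacna1e, Wdr33 and Dapk1 regions were also called in 3 of 3 E18.5 vastus intermedius lists. Of all gastrocnemius-only regions 8.78% were in all 3 vastus lateralis lists, beside 8.64% of regions called in exactly 3 lists. The Dapk1 region at chr13:60683932-60685694 was called in 16 of the other 18 lists, so that E18.5 soleus was the only group of 8 with no list calling it. The region beside Gm36488 at chr4:13548557-13550107, with peaks of 1551, 889 and 551 bp, was called in 0 of 12 adult lists. The remaining 4 lay in Wdr33, 4930578G10Rik and Slc24a3 and nearest to Gm36855.

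**Figure D3:**
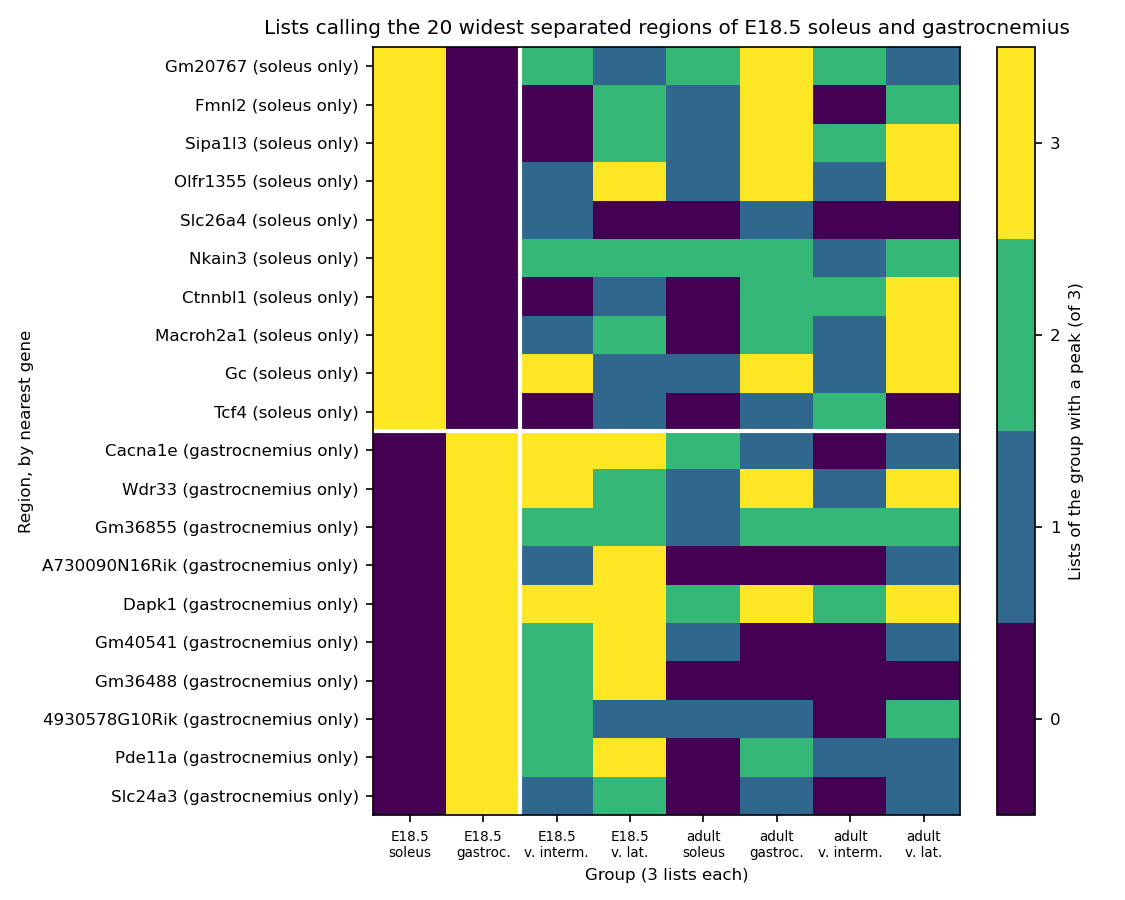
Number of lists of each group (columns, 3 lists a group) with a peak in the 20 widest separated regions (rows, by nearest gene), colour from 0 to 3. The first 2 columns are fixed by the rule, and in the other 6 groups the regions are called in mixed numbers, from 2 of 18 lists (Slc26a4) to 16 of 18 (Dapk1).

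By nearest gene, the 723 soleus-only regions fell to 697 genes, of which 673 had 1 region, and the 2152 gastrocnemius-only regions to 1933 genes, of which 1750 had 1. For soleus, the lncRNA genes Gm29686 and Gm29276 had 3 regions each, but were only the nearest genes. The regions of Gm29686 lay 28086 to 250481 bp from it. Those of Gm29276 lay on the Y chromosome, 345394 to 465787 bp from it. Genes with 2 soleus-only regions included Pde8b, a cyclic AMP phosphodiesterase, Col5a1, a fibrillar collagen chain, Itpr1, the inositol trisphosphate receptor, Ndufa4, a respiratory chain subunit, and Slc22a18. The Ndufa4 regions lay between genes, 25212 and 55863 bp from it. Those of Itpr1 were separated both ways, at chr6:108252140-108253146 with peaks of 625, 823 and 655 bp in soleus litters 1, 2 and 3 and at chr6:108272700-108273095 with peaks of 340, 387 and 264 bp. Sipa1l3 and Slc22a18, with 2 soleus-only regions each, also had 1 gastrocnemius-only region each.

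For gastrocnemius, Camta1, a calmodulin-binding transcription activator, had 6 regions, all inside the gene, of 77 regions in at least 3 lists nearest to it. The longest of the 6, at chr4:151443847-151445038, had peaks of 760, 500 and 641 bp in gastrocnemius litters 1, 2 and 3. Agap1, Grik3, Gse1 and the lncRNA gene 4933416E03Rik had 4 each, and Arid1b, Dgkd, Cdh23, Cdh4 and Hdac4 had 3 each. The regions of 4933416E03Rik lay 92711 to 350457 bp from it. Camta1 spans 802 kb and Grik3, a kainate receptor subunit, 224 kb, and the part of gene length in these counts was not tested.

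Genes of muscle and limb programs and cell type markers (352 genes in 20 lists) were nearest to 10 soleus-only regions, 0.412% of their 2430 regions in at least 3 lists, and to 50 gastrocnemius-only regions, 2.06%. Both shares lie close to the 0.563% and 1.68% of all regions. Among genes that set fibre type or energy use, soleus-only regions lay inside Ppargc1a, the coactivator that drives mitochondrial genes and slow fibre character, inside Nfia, Thra and Esrrb, and beside Rcan1, an inhibitor of calcineurin. The Ppargc1a region, at chr5:52114687-52115301, had peaks of 391, 492 and 330 bp in soleus litters 1, 2 and 3. That in Ucp3, a mitochondrial carrier of muscle, had peaks of 311, 282 and 288 bp. In the adult, the Ppargc1a and Thra regions were called in 1 soleus and 2 gastrocnemius lists each. Those of Esrrb, Ucp3 and Rcan1 were called in 0 and 1 each, and that of Nfia in 2 and 0. The other soleus-only regions of listed genes lay inside Tcf4, 69 bp from Cdh5, 491 bp from Gdf5 and 277166 bp from Shox2, which was only the nearest gene. Those at Tcf4 and Rcan1 were the 2 separated with equal rows as well.

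Gastrocnemius-only regions lay at genes of both fibre classes. Casq2, the calsequestrin of slow fibres, had 2, at chr3:102131874-102132389 with peaks of 516, 397 and 283 bp in gastrocnemius litters 1, 2 and 3 and at chr3:102141487-102142409 with peaks of 538, 452 and 575 bp. Ryr1, the calcium release channel, had 2, at chr7:29015121-29015816 and chr7:29063655-29064068, and Myh7b had the region at chr2:155611001-155612048 with peaks of 500, 215 and 677 bp. Slow fibre genes thus had 3 of 96 regions (3.13%) and fast fibre genes 3 of 95 (3.16%), beside 1.68% of all regions, and neither list had a soleus-only region, beside 0.563% of all regions. In each list 1 of the 3 was separated with equal rows as well. Fibre type regulators had 12 gastrocnemius-only regions of 614, or 1.95%, near the 1.68% of all regions. They included Hdac4, with 3, which represses Mef2 factors, Tead1, with 2, and Ppp3ca, the catalytic subunit of calcineurin, Nfix and Eya1, with 1 each. Sox6, which represses slow genes, had 1 region 3424 bp from the gene, at chr7:115466803-115467447, with peaks of 426, 382 and 339 bp.

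Connective tissue genes were also nearest to gastrocnemius-only regions. Fibro-adipogenic and fibroblast markers had 8 gastrocnemius-only regions of 250 (3.2%, beside 1.68% of all regions). They had 1 soleus-only region (0.4%, beside 0.563% of all regions). Of the 8, 2 each lay nearest to Col14a1 and Col3a1, both collagen genes, and to Tcf4. Tcf4, a separate gene from Tcf7l2 of the same list, held 56 of the 250 regions and the 1 soleus-only region, so these counts rest partly on it. Tendon markers had 3 gastrocnemius-only regions of 70 (4.29%) and 0 soleus-only regions. The 3 lay nearest to Thbs4, Sema3d and Tnc, and that at Sema3d was separated with equal rows as well. Over whole loci the median log2 difference of the tendon list was 0.11, with soleus higher. Limb patterning genes had 5 gastrocnemius-only regions of 194 (2.58%) and Hox genes 1 of 53 (1.89%), beside 1.68% of all regions. They had 1 and 0 soleus-only regions. Among them, Fgf10 had a gastrocnemius-only region at chr13:118744948-118745899 with peaks of 952, 416 and 432 bp that no other list of the 24 called. Hoxd10 had one at chr2:74689155-74690096 with peaks of 892, 296 and 274 bp. Gdf5, a joint morphogen, had regions of either kind, a soleus-only one 491 bp and a gastrocnemius-only one 3312 bp from the gene. Counts this small per list have no test here.

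Over whole loci, no fibre-type gene differed between the muscles past the test. Peak cover of a locus was the number of bases of the gene and 10 kb on either side that lay in peaks, per Mb of peaks in the list. Myh7, the slow myosin, had 40.1, 69.3 and 18.2 in soleus and 43.7, 41.1 and 49.99 in gastrocnemius litters 1, 2 and 3. Myh4, the fastest myosin, had 0, 5.07 and 0 in soleus and 5.66, 3.70 and 0 in gastrocnemius. The soleus values of Myh7 span those of gastrocnemius, and Myh4 was nearly free of peaks in both muscles. Myh2 and Myh1 were as low, at 0 to 6.71 in soleus and 0 to 6.94 in gastrocnemius over both genes. Myh3, the embryonic myosin, stood at 33.0 to 46.7 in soleus and 39.1 to 44.4 in gastrocnemius, but its promoter window was called in 0 of 6 lists. Myh8, the perinatal myosin, was lower, at 10.75 to 17.6 in soleus and 12.6 to 22.1 in gastrocnemius, and its promoter window was called in 6 of 6 lists.

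Of the 29 loci of myosins, troponins, calcium handling proteins and regulators, 1 had values that did not overlap. Tnni1, the slow troponin I, had 91.7, 74.1 and 77.9 in soleus and 70.0, 73.3 and 62.0 in gastrocnemius, so that every soleus value was higher. Of all 21526 loci with at least 3 peaks on average, 3.15% had soleus values above all gastrocnemius values and 4.53% below. The Tnni1 difference was 0.22 ± 0.18 on the log2 scale (SE; limma, adjusted p = 1). Atp2a2, the calcium pump of slow fibres, had 109, 61.5 and 86.5 in soleus and 64.1, 60.4 and 86.8 in gastrocnemius. Atp2a1, its fast counterpart, had 56.02, 42.9 and 48.0 in soleus and 53.9, 65.6 and 40.6 in gastrocnemius. Both overlap. Sox6 had 233, 150 and 187 in soleus and 168, 143 and 180 in gastrocnemius, and Nfix 249.8, 189 and 239 in soleus and 210.4, 207.5 and 198.6 in gastrocnemius. The 24 of these loci that passed the filter ranged from -0.33 (Myl3, the slow myosin light chain) to 0.28 (Tnni2, the fast troponin I) in log2 difference, with a median of -0.0039 beside -0.01 for all loci tested. The smallest unadjusted p was 0.24. The 5 that did not pass it were Myh2, Myh1, Myh4, Myl1 and Mylpf.

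**Figure D4:**
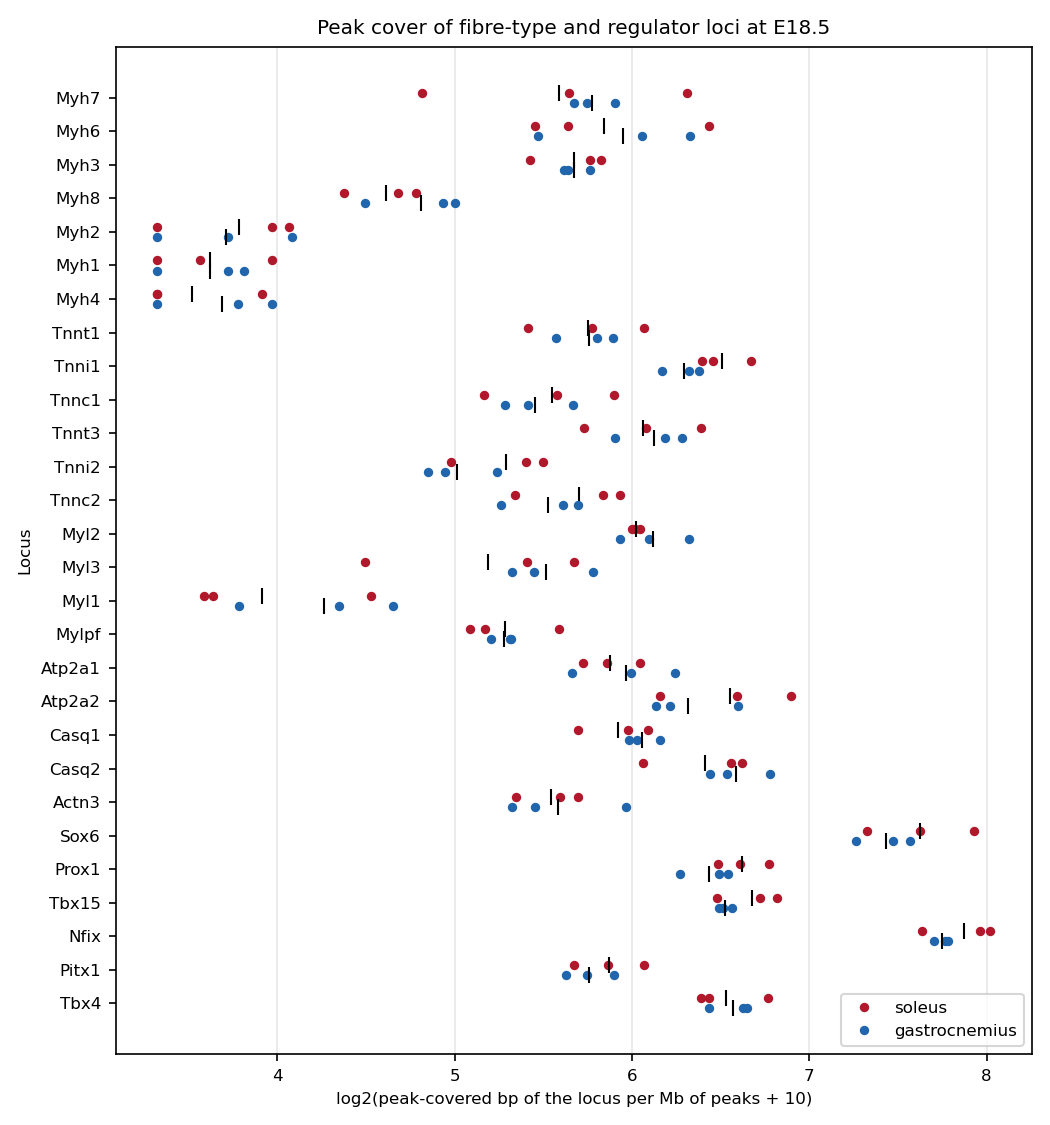
Peak cover of myosin, troponin, calcium handling and regulator loci (rows) in the 3 soleus and 3 gastrocnemius lists at E18.5, on a log2 scale with 10 added (x axis), as dots with the mean as a black tick. The soleus dots of Tnni1 lie above those of gastrocnemius, and the groups overlap at every other locus drawn.

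The medians of the gene lists of fibre programs lay close to that of all loci. The median log2 difference was -0.03 for slow fibre genes, -0.03 for fast fibre genes, -0.04 for embryonic and neonatal muscle genes and 0.01 for fibre type regulators. Of 19 fast fibre loci tested, 2 had all soleus values below gastrocnemius and 0 above: Cacna1s, the calcium channel of the fibre membrane, and Ckm, muscle creatine kinase. Of 19 slow fibre loci tested, 1 had all above, Tnni1, and 0 below. Over all loci, 4.53% lay below and 3.15% above, and counts this small were not tested. Marker lists of other cell types mostly overlapped in summed cover. Exceptions were cartilage and bone, at 823 to 882 in soleus and 733 to 793 in gastrocnemius, and smooth muscle and pericytes, at 562 to 634 in soleus and 637 to 682 in gastrocnemius. Without Abcc9 the smooth muscle and pericyte sums overlapped, at 535.7 to 598 in soleus and 553 to 591 in gastrocnemius. Fibro-adipogenic markers summed to 1447 to 2095 in soleus and 1772 to 1927 in gastrocnemius. The part of such cells in the values above and below was not tested.

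Across the genome no locus passed. In limma on log2(cover + 10), 0.0% of the 21526 loci were called in either direction (smallest adjusted p = 0.842), with 253 higher and 503 lower in soleus at an unadjusted p under 0.05. The litters pair the samples by the labels. With the litter as a block in the fit, 3 loci were higher in soleus (0.0139%) and 8 lower (0.0372%). With equal rows in the same fit no locus was called (smallest adjusted p = 0.435). There F7, F10 and Bpifb2 did not pass the filter, and the other 8 kept their direction, among them Abcc9 at -1.13 and Nebl at 0.87 on the log2 scale, against -1.04 and 0.84 with full lists. Without litter 1 or litter 2 no locus was called in the blocked fit, and without litter 3 only Bpifb2 was.

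The 3 loci higher in soleus with the block were Nebl, Cntn5 and Spag16. Nebl, a nebulin relative of the Z-disc known from heart, had 106, 83.9 and 141 in soleus and 57.4, 61.7 and 49.4 in gastrocnemius, a log2 difference of 0.84 ± 0.20 (SE; limma, adjusted p = 1, with the block 0.0486). Every soleus value lay above every gastrocnemius value. Cntn5, a neural adhesion protein, had 46.5, 69.3 and 57.0 in soleus and 33.2, 29.6 and 15.8 in gastrocnemius, a log2 difference of 0.92 ± 0.22 (limma, adjusted p = 1, with the block 0.0465). Spag16, a protein of the sperm axoneme, had 34.0, 75.3 and 87.7 in soleus and 27.1, 37.2 and 16.1 in gastrocnemius, with overlap, but soleus was higher in each litter.

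The same 3 loci had soleus above gastrocnemius in the adult lists, which took no part in choosing them. Adult soleus values were 67.5, 115 and 104 for Nebl, with 46.4, 64.9 and 66.1 in adult gastrocnemius. For Cntn5 they were 133, 143 and 141, with 73.6, 113 and 41.3, and for Spag16 they were 80.3, 151 and 127, with 64.8, 77.9 and 48.1. The groups overlap at none of the 3, where 4.03% of all loci had adult soleus values above all adult gastrocnemius values. The 3 loci are long, at 412, 1291 and 918 kb for Nebl, Cntn5 and Spag16 with flanks, and hold no separated region. The 4.03% was taken over loci of all lengths, and the part of locus length was not tested. Of the 678 loci with soleus values above all gastrocnemius values at E18.5, 26 (3.84%) were so in the adult, close to the share of all loci. The reverse held in the adult for 73 (10.8%) of them, beside 10.5% of all loci.

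The 8 loci lower in soleus with the block were Abcc9, F7, Gria1, Icos, Bpifb2, F10, Lbp and Gm20190. Abcc9, the sulfonylurea receptor of the potassium channels of vessels and muscle and a pericyte marker, had 35.5, 46.6 and 26.3 in soleus and 73.8, 93.1 and 83.7 in gastrocnemius, a log2 difference of -1.04 ± 0.20 (SE; limma, adjusted p = 0.842, with the block 0.0107). The groups lie far apart. Its separated region at chr6:142667044-142668917 was the only one of the 2152 gastrocnemius-only regions called in all 18 other lists, so E18.5 soleus was the one group without it, although it was not separated with equal rows. F7 and F10, neighbouring genes of clotting factors whose loci share bases, had 3.10, 20.9 and 4.26 and 0, 27.2 and 0 in soleus, against 38.9, 35.8 and 42.9 and 31.9, 32.2 and 48.5 in gastrocnemius. Icos, a T cell costimulator, had 26.4, 17.2 and 11.9 in soleus and 46.9, 40.7 and 55.8 in gastrocnemius. None of the 8 had adult soleus values below all adult gastrocnemius values, which 10.5% of all loci did: adult Abcc9 stood at 120.3, 77.1 and 51.6 in soleus and 88.2, 74.7 and 63.9 in gastrocnemius.

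Other loci with the smallest p in the fit without the block, none of which passed it, were C2cd5, Arhgef38, Dnase2b and Rap1b, higher in soleus in every list, and Shisa9, Spata31d1d and Car6, lower in every list. Dnase2b, a DNase, had 61.8, 65.2 and 60.2 in soleus and 37.7, 37.0 and 27.5 in gastrocnemius. Car6, a secreted carbonic anhydrase, had 18.98, 11.9 and 7.66 in soleus and 35.3, 32.8 and 46.0 in gastrocnemius.

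**Figure D5:**
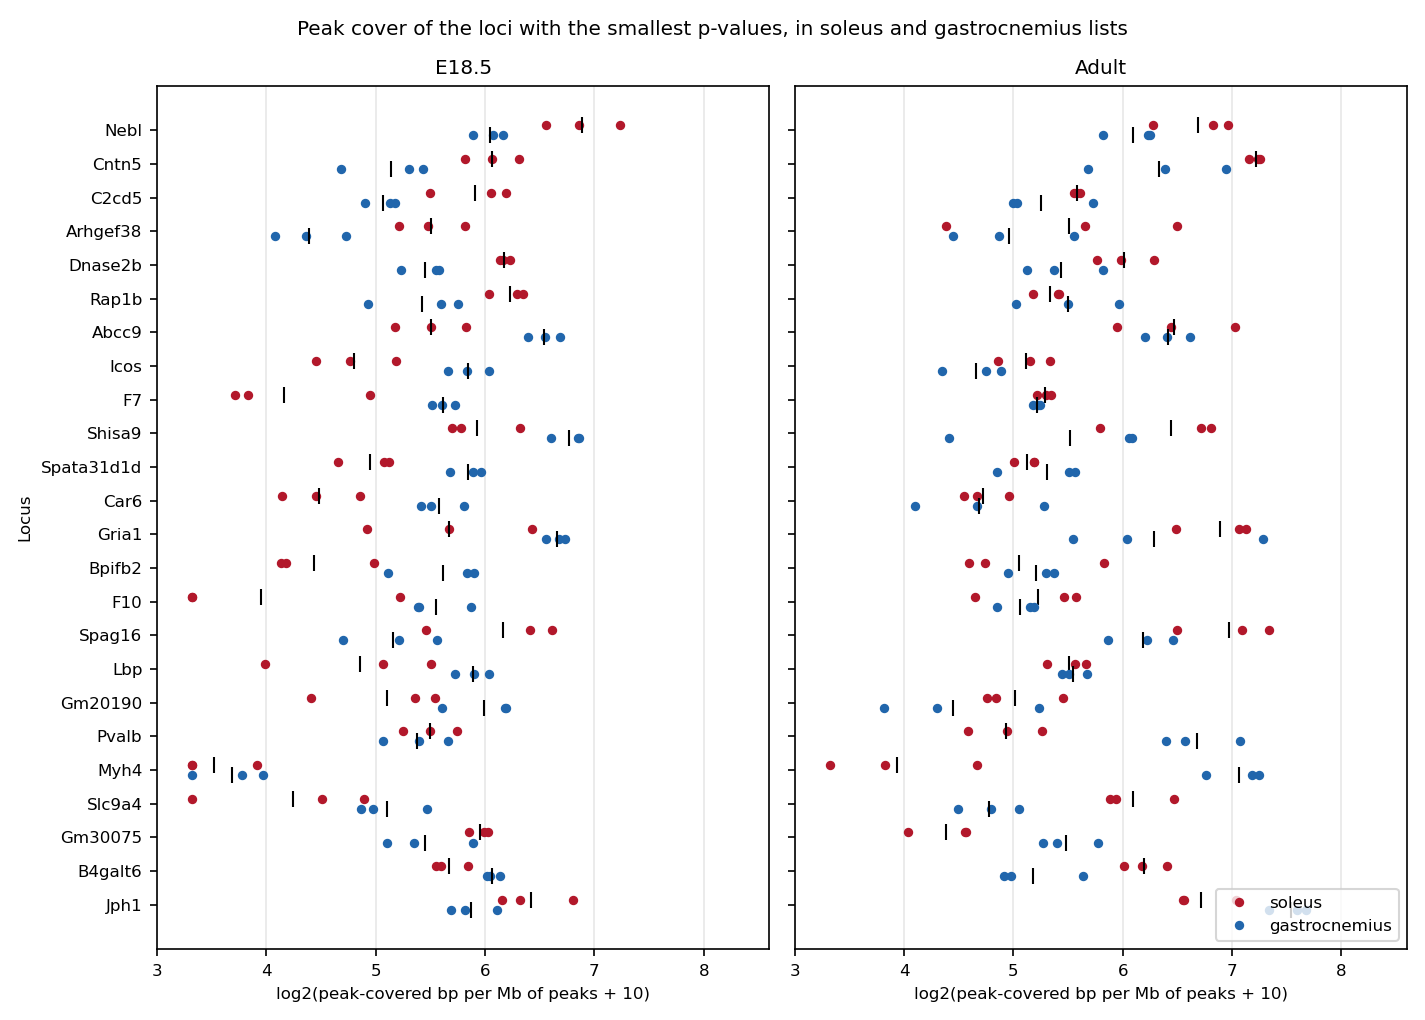
Peak cover on a log2 scale with 10 added (x axis) of the loci with the smallest p at E18.5, with and without the litter block, and of the 6 with the smallest p for a change of the muscle difference between stages (rows), in soleus and gastrocnemius lists at E18.5 and in the adult. Dots are lists and black ticks means; Nebl, Cntn5 and Spag16 are higher in soleus at both stages, and Myh4 and Pvalb differ in the adult lists.

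Few separated regions were particular to the E18.5 calf. Of the soleus-only regions 16, and of the gastrocnemius-only regions 67, were called in none of the other 18 lists, 2.21% and 3.11% against 2.74% of all regions called in exactly 3 lists. Soleus-only regions had more adult soleus than adult gastrocnemius lists in 206 cases (28.5%) and fewer in 225 (31.1%), where regions called in exactly 3 lists gave 24.3% and 32.3%. Of them 5 (0.692%) were also separated in the adult in the same direction and 10 (1.38%) in the opposite one, near the 0.480% and 1.30% of regions called in exactly 3 lists. Gastrocnemius-only regions had more adult gastrocnemius than adult soleus lists in 676 cases (31.4%) and fewer in 474 (22.03%), again near the 32.3% and 24.3% of regions called in exactly 3 lists, with 32 separated in the same direction and 3 in the opposite one. The 32 are 1.49% of the gastrocnemius-only regions, where 1.30% of all regions in exactly 3 E18.5 lists were gastrocnemius-only in the adult. In the thigh, soleus-only regions had more vastus intermedius lists in 226 cases (31.3%) and more vastus lateralis lists in 209 (28.9%), beside 31.9% and 30.6% of regions called in exactly 3 lists.

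Of the 32, the region at chr9:67098667-67100163, with peaks of 674, 591 and 1101 bp in gastrocnemius litters 1, 2 and 3, and that at chr9:67090467-67091475, with 808, 279 and 764 bp, lay nearest to the lncRNA gene Gm10646. They lay 49.0 and 40.8 kb from Tpm1, the tropomyosin of fast fibres and the nearest coding gene. Others lay inside Ryr1, Nfix, Cmya5, a Z-disc protein, Cds1, Wdr20, Arid1b and Dgkd. Those 9 regions were picked out after their values were seen.

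The adult calf separated more. Adult soleus and gastrocnemius lists separated 1545 and 3706 regions, 5.15% of the 101889 in at least 3 of those 6 lists, and no other arrangement of them reached that total (exact permutation test, p = 0.1, the smallest possible). The E18.5 muscles separated 2.24%, and E18.5 vastus intermedius and vastus lateralis 2.50% (1519 and 1476 regions, exact permutation test, p = 0.5). With equal rows the shares were 2.34% at E18.5 in the calf, 5.42% in the adult calf and 2.15% in the E18.5 thigh. Adult animal 1 had 0.174% to 0.228% of its peaks on the Y chromosome in its 4 lists, where animals 2 and 3 had 1.21% to 1.59%.

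The change of the muscle difference between stages was tested per locus over the 12 calf lists, as the E18.5 soleus minus gastrocnemius difference less the adult one. No locus passed (0.0% of 21538, smallest adjusted p = 0.135), nor with the animal or litter as a block (0.0624) or equal rows (0.0984), while 844 and 524 had an unadjusted p under 0.05 in either direction. The smallest p belonged to Pvalb, parvalbumin, the calcium buffer of fast fibres, and to Myh4. Pvalb had 28.0, 35.1 and 43.5 in E18.5 soleus and 23.6, 32.1 and 40.5 in E18.5 gastrocnemius, but 28.3, 20.7 and 14.1 in adult soleus and 84.8, 74.4 and 124.3 in adult gastrocnemius (log2 change 1.87 ± 0.34, limma, adjusted p = 0.135). Myh4 had 0, 15.4 and 4.18 in adult soleus and 142, 98.5 and 135 in adult gastrocnemius, where the E18.5 values ran from 0 to 5.66 (log2 change 2.96 ± 0.56, adjusted p = 0.152). Atp2a1 had 44.6, 34.2 and 42.9 in adult soleus and 123.7, 92.2 and 115.9 in adult gastrocnemius (log2 change 1.16 ± 0.30, adjusted p = 0.416). At E18.5 the soleus and gastrocnemius values of all 3 loci overlapped.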

How the data were processed

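The data are ATAC-seq peak lists of 24 libraries, 6 of which form the comparison. The submitters' processing notes name, without their roles, MACS2 2.1.1, a peak caller, Bowtie2 2.4.4, an aligner, and the build mm10, beside Picard, bedtools 2.25.0, Trimmomatic 0.39.0, SAMtools 1.14.0 and FastQC 0.11.5. The authors deposited a list per library with chromosome, start and end only, so that no count, score or signal was at hand. No threshold, read shift or read depth is stated there, and a site without a peak may still be open.

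Peaks of the 6 lists on chromosomes 1 to 19, X and Y were merged where they overlapped or touched, by the rule of bedtools merge (checked against version 2.31.1), and any overlap of 1 bp or more with a list's peak counted as a call. Genes were 34610 protein-coding and lncRNA genes of RefSeq (GRCm38.p6), without strand or exons, so exons and introns were not told apart; promoter windows came from RefSeq's 32851 windows. Neighbouring loci can share bases. Cover was tested with limma 3.58.1 (R 4.3.3, trend and robust moderation, Benjamini-Hochberg adjustment over all loci, threshold 0.05) on log2(bases per Mb + 10), which understates changes of low loci. No region can reach p under 0.1 with 3 against 3, so separated regions have no p of their own. The limma fit without the litter block was tested on simulated data with independent noise in each list, and the fit with the block was not. The share of changed loci it recovered is not reported here. Groups of 3 come from separate litters or animals. Same-numbered lists share a litter or animal per the labels, and the same-litter correlation of deviations from the group means of locus cover was 0.141, 0.0104 and 0.276 for litters 1, 2 and 3, against at most 0.0467, 0.220 and -0.0468 with another litter, so that litter 2 was less alike within the litter.

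Text genes were named by rule: 29 fixed loci, of which 1 is counted but not reported here, the 10 widest separated regions per direction, the 10 genes per direction nearest to most regions, up to 15 listed genes per direction nearest to a separated region, and loci past the threshold or, with none, the 6 of smallest p per direction. Sema3d, Tnc, Cacna1s, Ckm, Pvalb and the regions separated at both stages fall outside it and were chosen after their values were seen. The muscles, regions and lists were chosen with earlier results of these data known.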

Additional observations from a re-analysis of the deposited data

How the results depend on the processing

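The fits that combine the litter block with another setting, the stage comparison and leaving out litter 1 were added after seeing the data. Soleus-only regions numbered 359 and gastrocnemius-only regions 905 with the first 57666 rows, and 3216 and 8195 when 1 list of the other muscle was allowed. Gastrocnemius-only regions numbered 1375 and 1416 with the rows of the shortest of 24 and of 6 lists. Without litter 1 the counts were 9790 and 7664. Leaving out a list gave 1014 to 5633 soleus-only and 2711 to 10919 gastrocnemius-only regions. By nearest protein-coding gene, 21 soleus-only and 78 gastrocnemius-only regions fell to listed genes, against 10 and 50. The total over the muscles stood 346, 309 and 602 above the median of the other arrangements with the rows of the shortest of 24, the shortest of 6 and 57666 rows. It stood 416 above with 50% cover and 17 above on autosomes, against -40 with full lists. In exact permutation tests p ran from 0.2 to 0.6 over all 10 arrangements and from 0.25 to 0.75 with the litter fixed. The smallest p these tests allow is 0.1 and 0.25. No setting could therefore have passed the threshold used for loci, and no conclusion is drawn from that. The difference in list length ran from -49023 to 4852 without a list (169 and 3963 were the other positive values), and the difference in likeness from -0.0168 to 0.0134, with 0.00548 for 57666 rows. With the litter block, 3 loci were higher and 8 lower, 2 and 9 with a plain prior, 5 and 16 with 100 added, 0 and 1 with 1 added, and 0 to 1 without a litter; of the 11 loci, 9, 11 and 1 remained with the plain prior, 100 and 1 added. Every fit without the block called 0 loci. Of 24 fixed loci tested, 17 changed sign in at least 1 of 22 settings. None named for a small p did, but those were chosen from the same lists for their difference. Their sign could therefore hardly turn, and its steadiness is no separate check. The causes were not tested.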
